A study of Mus musculus with 8 samples.

Results

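Immunoglobulin heavy and light chain genes were followed in macrophages sorted from the epididymal white adipose tissue (eWAT) of obese mice. Members were all rows named as heavy (Ighv), kappa (Igkv) or lambda (Iglv) variable segments, and the constant region genes, that reached 10 counts in at least 1 library. Of 360 immunoglobulin symbols among 54146 genes in the deposited table, 176 met this rule, namely 11 constant region genes, 83 Ighv, 79 Igkv and 3 Iglv segments. The rule selected members on the counts of the libraries compared below, and 39 members reached 10 counts in a single library, which was the FCGR4- library of mouse 4 for 23 of them. Counts of members called in 1 direction are therefore descriptions and carry no weight as evidence for the set. Just inside the limit, 8 members peaked at between 10 and 12 counts, and just outside it 5 symbols peaked at 9. Of the symbols left out, 107 had no count in any library, and Ighe, the constant region of IgE, was among them.

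Libraries came from 4 C57Bl6 mice that had been fed a high fat diet ad libitum for 24 weeks and then underwent caloric restriction for 2 weeks, with the amount of food reduced by 30%. One FCGR4+ and one FCGR4- library was made from each mouse, both from cells gated as CD45+, CD3-, B220-, Ly6G-, SiglecF- and CD11b+, so that every group shared the diet, the restriction and the gate. FCGR4 is a receptor for the Fc part of IgG. The B220 gate removes most B cells, whereas antibody-secreting plasma cells carry little B220. The total counts ranged from 35992794 to 66856746 per library. Fcgr4, the gene of the sorted protein, measured 215, 139, 208 and 236 CPM (counts scaled to the normalized library size) in FCGR4+ libraries of mice 1 to 4 and 48.5, 52.2, 81.1 and 82.9 in FCGR4- libraries, so every mouse followed its labels. None of 11 macrophage markers passed the threshold in either direction, beside 1.19% of all genes tested passing as lower and 0.0819% as higher. Their summed level was 30381 to 55251 CPM in FCGR4+ and 24305 to 48629 CPM in FCGR4- libraries. The labels give macrophages as the cell type for all 8 libraries.

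An antibody is made of heavy and light chains. In each developing B cell, 1 of many variable segments is joined to short joining segments ahead of a constant region, so cells of a clone share their segments, although many clones can use the same segment. The first heavy chains carry the constant region Ighm (IgM) or Ighd (IgD), and switching replaces it with Ighg (IgG), Igha (IgA) or Ighe (IgE), while a light chain carries either Igkc (kappa) or one of the Iglc genes (lambda). Macrophages do not rearrange these loci; they bind antibodies through Fc receptors.

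Of the member genes, 90 lie on chromosome 12 between 113254830 and 115981134 (the heavy locus), 80 on chromosome 6 between 67555497 and 70726966 (kappa) and 6 on chromosome 16 between 19061618 and 19260859 (lambda), in mm10 coordinates. The annotation lists 155 as variable genes, 10 as variable pseudogenes and 11 as constant genes. Read pairs that mapped to several places were counted at each, so counts of near-identical segments overlap. Among members, 134 shared at least 10% of their 50-base words with another gene, whereas Ighm, Igkc, Igha, Ighd, Iglc1 and Igkv14-126 shared 0%. The coding variable exons of 5 segments are shown because the usage results turn on them and because they show how close such copies are. They are from GENCODE transcripts on mm10, written 5′ to 3′ on the coding strand, and stop at the annotated end of the exon. Ighv11-2 (chr12:114048241-114048540, minus strand, the last 300 of 307 coding bases of the exon) and its neighbor Ighv11-1 (chr12:113981879-113982178, minus strand) were identical at 296 of 300 positions, and capitals mark the 4 that differ.
Ighv11-2: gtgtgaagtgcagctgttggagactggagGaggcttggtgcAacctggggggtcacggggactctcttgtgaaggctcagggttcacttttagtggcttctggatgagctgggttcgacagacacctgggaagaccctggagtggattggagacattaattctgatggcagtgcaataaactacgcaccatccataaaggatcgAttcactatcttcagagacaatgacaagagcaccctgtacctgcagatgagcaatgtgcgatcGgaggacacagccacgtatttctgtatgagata
Ighv11-1: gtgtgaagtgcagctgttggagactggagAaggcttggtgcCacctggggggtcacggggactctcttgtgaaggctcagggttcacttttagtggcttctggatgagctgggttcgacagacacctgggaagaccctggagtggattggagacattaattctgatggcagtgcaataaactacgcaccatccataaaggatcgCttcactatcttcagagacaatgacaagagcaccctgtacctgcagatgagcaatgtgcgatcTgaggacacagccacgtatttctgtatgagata

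Igkv6-20 (chr6:70335841-70336138, minus strand) and Igkv6-29 (chr6:70138462-70138759, minus strand) were identical at 293 of 298 positions, and capitals again mark the differences. Their longest identical stretch was 176 bases.
Igkv6-20: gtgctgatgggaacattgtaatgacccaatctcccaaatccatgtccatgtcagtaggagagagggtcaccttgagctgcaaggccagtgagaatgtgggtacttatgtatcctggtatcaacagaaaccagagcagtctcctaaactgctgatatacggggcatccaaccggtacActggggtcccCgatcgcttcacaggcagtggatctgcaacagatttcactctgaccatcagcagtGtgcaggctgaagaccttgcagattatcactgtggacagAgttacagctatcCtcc
Igkv6-29: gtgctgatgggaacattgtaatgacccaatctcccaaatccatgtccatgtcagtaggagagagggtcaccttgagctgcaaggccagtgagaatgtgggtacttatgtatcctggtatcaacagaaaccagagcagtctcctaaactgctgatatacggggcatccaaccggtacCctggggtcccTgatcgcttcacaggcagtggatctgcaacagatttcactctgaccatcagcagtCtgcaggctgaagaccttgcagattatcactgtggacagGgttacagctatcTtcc

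Igkv14-126 (chr6:67896345-67896642, plus strand) had no such partner and is shown without capitals.
Igkv14-126: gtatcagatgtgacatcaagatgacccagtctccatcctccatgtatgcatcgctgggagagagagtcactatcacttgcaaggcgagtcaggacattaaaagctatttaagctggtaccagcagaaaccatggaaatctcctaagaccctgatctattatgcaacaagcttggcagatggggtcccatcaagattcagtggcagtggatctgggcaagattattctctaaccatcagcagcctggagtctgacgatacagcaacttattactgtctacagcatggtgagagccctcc

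Immunoglobulin RNA was scarcer in FCGR4+ than in FCGR4- cells of every mouse. All members together took 0.0399%, 0.0265%, 0.0233% and 0.0479% of counts in FCGR4+ libraries of mice 1 to 4, and 0.238%, 0.0694%, 0.103% and 0.612% in FCGR4- libraries. The groups did not overlap, and the FCGR4- library of mouse 4 held the most. Summed members were at 353 ± 109 CPM (SD, n = 4) in FCGR4+ and 2386 ± 2200 CPM in FCGR4- libraries, and the per-mouse log2 ratio of FCGR4+ over FCGR4- averaged -2.36 (SD 0.89, n = 4 mice). In these bulk libraries, fewer cells of a type and less RNA per cell cannot be told apart. The sum of the constant region genes had a mean log2 ratio of -2.16 (SD 0.84), and the sum of the variable segments one of -3.25 (SD 1.09). No p-value is given for these sums, since the members were selected with results known.

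Ighm was the member with the most counts. It measured 319, 167, 199 and 291 CPM in FCGR4+ libraries of mice 1 to 4, and 1159, 400.2, 460.3 and 2307 CPM in FCGR4- libraries. Every FCGR4- library lay above every FCGR4+ library, although those of mice 2 and 3 were close to the FCGR4+ range. The log2 fold change was -1.82 ± 0.31 (SE; adjusted p = 0.0666, edgeR's paired quasi-likelihood fit, which adjusts over all 17095 genes tested and is read at a threshold of 0.1). The adjusted p rose to 0.202 without mouse 1 and to 0.123 without mouse 2. Igkc, the kappa constant region, differed more. It was at 21.5, 59.1, 22.9 and 91.7 CPM in FCGR4+ libraries and at 428, 170, 244 and 1374 CPM in FCGR4- libraries, again without overlap, and its log2 fold change was -3.33 ± 0.47 (adjusted p = 0.0423). That call was lost without mouse 1 (adjusted p = 0.109) and without mouse 4 (0.129).

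Among lambda constant regions, Iglc3 measured 1.43, 1.06, 1.37 and 2.2 CPM in FCGR4+ and 3.19, 4.06, 13 and 21.8 CPM in FCGR4- libraries. Its log2 fold change was -2.43 ± 0.42 (adjusted p = 0.0686), and the call was lost without mouse 2 (0.149), 3 (0.119) or 4 (0.217). Iglc1 (-2.89 ± 0.67 on the log2 scale, adjusted p = 0.167) and Iglc2 (-3.08 ± 0.83, adjusted p = 0.233) did not pass the threshold, though their values were lower in FCGR4+ cells of 4 of 4 mice. The paired DESeq2 model called both (adjusted p = 0.0115 and 0.0351), as did edgeR's other quasi-likelihood method (0.0422 and 0.0396) and the fit with no filter (1.31e-07 and 5.74e-07). Iglc1 had 739 counts in the FCGR4+ library of mouse 1 and 0 in that of mouse 2.

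Igha, the constant region of IgA, had the most negative log2 fold change of the constant genes tested (-4.92 ± 1.04) and did not pass (adjusted p = 0.130; 0.0822 without mouse 1). It did pass with the paired DESeq2 model (0.0138), with edgeR's other quasi-likelihood method (0.00998), with no filter on low counts (2.43e-10) and with mice 3 and 4 alone (0.0535). Its counts were 3, 7, 89 and 132 in FCGR4+ and 3600, 11, 1671 and 3136 in FCGR4- libraries. Mouse 2 had almost no Igha in either population, while the other FCGR4- libraries carried 1671 or more counts each. Ighd went with neither group, at 109, 37, 120 and 67 counts in FCGR4+ and 180, 21, 552 and 67 in FCGR4- libraries (log2 fold change -0.54 ± 0.53, adjusted p = 0.735; a log2 fold change of 0.051 without mouse 3). The IgG constant regions had few counts in most libraries. Ighg2b had 12, 13, 0 and 0 counts in FCGR4+ and 22, 5, 13 and 451 in FCGR4- libraries (log2 fold change -2.62 ± 1.78, adjusted p = 0.645). Ighg2c had 1 to 8 counts in FCGR4+ and 0 to 19 in FCGR4- libraries. Ighg1 and Ighg3 had 0 counts in all FCGR4+ libraries. In FCGR4- libraries Ighg1 had 3, 0, 17 and 21 counts and Ighg3 had 70, 4, 10 and 47. Ighg1, Ighg2c and Ighg3 had too few counts for the filter and were not tested. In every library a count of 0 allows up to 3 counts, or 0.0440 to 0.0883 CPM, from counting error alone.

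In both populations, IgM was the main heavy chain. Ighm took 98.3% to 99.3% of heavy constant counts in FCGR4+ and 91.8% to 99.6% in FCGR4- libraries, uncorrected for gene length. The Igha share was 0.0158%, 0.0863%, 0.702% and 0.928% in FCGR4+ libraries of mice 1 to 4, and 4.55%, 0.0805%, 6.02% and 1.95% in FCGR4- libraries, so it was lower in FCGR4+ cells of mice 1, 3 and 4 and about the same in mouse 2. The lambda share of light chain constant counts was 40.8% (exact binomial 95% interval 38.7 to 42.9), 3.10%, 15.6% and 7.34% in FCGR4+ libraries of mice 1 to 4, and 18.0%, 3.47%, 10.05% and 7.45% in FCGR4- libraries. It differed more between mice than between both populations of mouse 2 or 4, and the mean difference was 6.96 percentage points (SD 10.9, n = 4 mice), of which mouse 1 gave 22.8, and without mouse 1 the mean was 1.69. Such intervals cover counting error only.

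Of the 176 members, 59 had at least 10 counts in at least 4 libraries and were tested. Of these, 13 passed the threshold with lower values in FCGR4+ cells, beside 1.19% of all genes tested. None passed with higher values, beside 0.0819% of all genes, and none reached an unadjusted p under 0.05 in that direction by edgeR or by DESeq2. The median log2 fold change of the tested members was -2.94, compared with -0.0025 over all genes. The 117 members not tested had too few counts, and 88 members stayed under 10 counts in every FCGR4+ library. With DESeq2 33 members were called lower (beside 4.87% of all genes), and with no filter 88 of 176 (beside 2.35%).

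**Figure D1:**
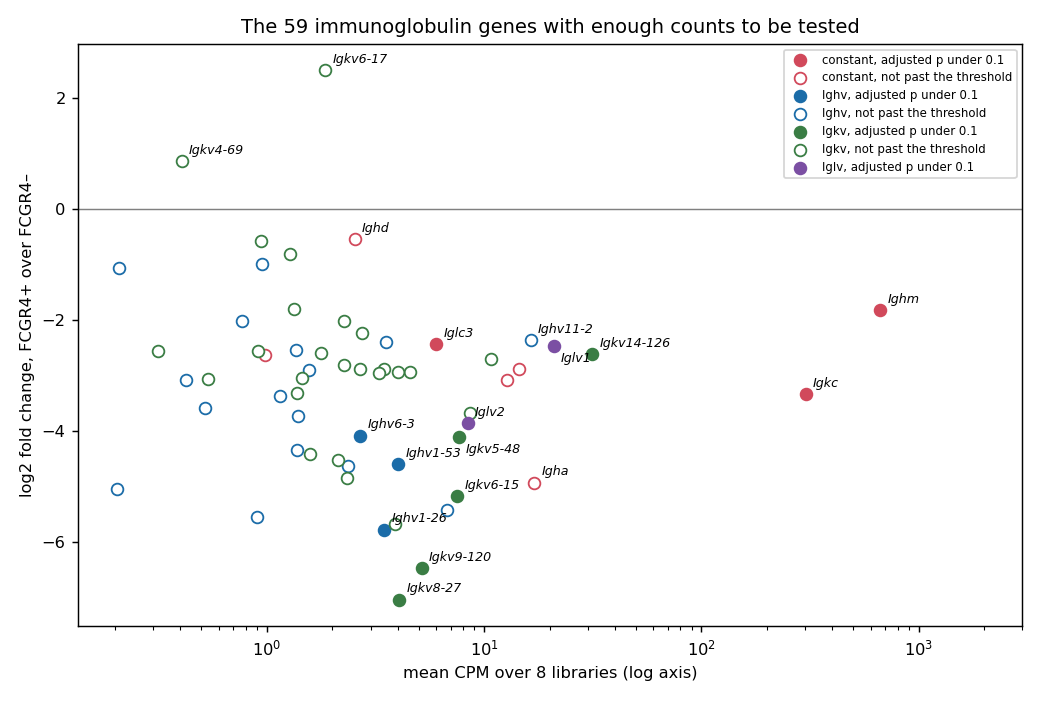
Log2 fold change of FCGR4+ over FCGR4- cells against mean CPM over 8 libraries (log axis) for the 59 tested members, with filled points for the 13 past the threshold. All but Igkv6-17 and Igkv4-69 lie below 0, and the low genes spread the most.

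Variable segments counted as past the threshold came from all 3 loci. On the heavy locus, Ighv1-26 was at 0.034, 0.104, 0.032 and 0.540 CPM in FCGR4+ and at 4.12, 8.12, 3.58 and 11.3 CPM in FCGR4- libraries, with no overlap (log2 fold change -5.77 ± 0.52, adjusted p = 0.00803). Ighv1-53 (-4.59 ± 0.71, adjusted p = 0.0546) and Ighv6-3 (-4.08 ± 0.62, adjusted p = 0.0528) also passed, but had 1 count each in the FCGR4- library of mouse 2. Ighv1-26 and Ighv1-53 shared 49.0% and 57.6% of their words with other genes, so part of their counts may belong to neighbors. On the kappa locus, Igkv9-120 had 4, 7, 8 and 0 counts in FCGR4+ and 556, 694, 69 and 726 in FCGR4- libraries. It met the count filter only through the FCGR4- libraries, where it was high, so its log2 fold change of -6.46 ± 0.88 is a description, although it is among the 13 counted above. Igkv8-27 (-7.03 ± 0.46, adjusted p = 0.00731), Igkv5-48 (-4.10 ± 0.33, adjusted p = 0.00902) and Igkv6-15 (-5.16 ± 0.97, adjusted p = 0.0900) passed although mouse 2 gave them little or nothing. Igkv8-27 and Igkv5-48 had 0 counts in both of its libraries, and Igkv6-15 had 2 and 1, so these calls rest on the other mice. In FCGR4+ libraries of mice 1 to 4, Igkv8-27 took 0.110%, 0%, 1.42% and 0.106% of 913, 1610, 776 and 2819 Igkv counts. Among these it reached 10 counts in mouse 3 alone. Igkv5-48, with 244, 0, 7 and 7 counts there, did so in mouse 1 alone. Both therefore met the count filter mainly through FCGR4- libraries, where they were high. Igkv14-126 measured 4.67, 7.18, 0.910 and 20.2 CPM in FCGR4+ and 90.8, 26.4, 3.79 and 97.9 CPM in FCGR4- libraries. Its groups overlapped, but it was lower in FCGR4+ cells of 4 of 4 mice (log2 fold change -2.61 ± 0.41, adjusted p = 0.0577). The lambda segments Iglv1 (-2.46 ± 0.43, adjusted p = 0.0706) and Iglv2 (-3.85 ± 0.45, adjusted p = 0.0214) were lower in 4 of 4 mice as well. Iglv3 had at most 54 counts and was not tested.

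Leaving out each mouse in turn, Ighv1-26, Igkv8-27 and Iglv2 kept their calls every time. Igkv5-48 lost its call without mouse 1 (adjusted p = 0.173). Ighv1-53 lost it without mouse 1 (0.173) or 4 (0.213), Ighv6-3 without mouse 2 (0.103) or 4 (0.298) and Igkv14-126 without mouse 2 (0.117) or 4 (0.151). Igkv9-120, given above as a description, was past the threshold in the full fit but not without mouse 1 (0.135) or 2 (0.157). Igkv6-15 was called only without mouse 3, and Iglv1 only without mouse 1. Igkv6-17 and Igkv4-69 were the tested members with a positive log2 fold change (2.49 ± 2.28 and 0.86 ± 1.48), far from the threshold. Igkv6-17 had 335 counts in the FCGR4+ and 28 in the FCGR4- library of mouse 2, but 0 and 208 in those of mouse 3, and it passed as higher without mouse 3.

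Counts of heavy variable segments did not keep step with those of heavy constant genes, whereas those of light chains did. For every 100 heavy constant counts, FCGR4+ libraries of mice 1 to 4 held 4.11, 7.87, 1.97 and 7.82 Ighv counts, and FCGR4- libraries held 14.6, 13.8, 11.5 and 17.4. The ratio was lower in FCGR4+ cells of 4 of 4 mice, the groups did not overlap, and the mean log2 ratio was -1.58 (SD 0.77). For every 100 Igkc counts there were 71.7, 56.7, 54.2 and 63.8 Igkv counts in FCGR4+ and 67.4, 56.2, 61.5 and 84.6 in FCGR4- libraries, which overlapped, with a mean log2 ratio of -0.12 (SD 0.22). Lambda segments per 100 Iglc counts overlapped too (86.2 ± 19.6 and 86.4 ± 10.5, n = 4). Ratios within a library do not depend on scaling between libraries. They were chosen after the values had been seen, and are descriptions with no test. With only the segments that share under 10% of their words (14 Ighv and 17 Igkv), the heavy ratio was again lower in 4 of 4 mice and the kappa ratio in 2.

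Ighm also stood apart from Igkc. Each Igkc count was accompanied by 14.8, 2.83, 8.71 and 3.17 Ighm counts in FCGR4+ libraries and by 2.71, 2.35, 1.88 and 1.68 in FCGR4- libraries. Divided by the annotated gene lengths, these were 4.19, 0.799, 2.46 and 0.895 against 0.764, 0.662, 0.531 and 0.474. The groups did not overlap, and mice 1 and 3 had the largest difference. Jchain, which encodes the joining chain of secreted IgM and IgA, followed Igkc and not Ighm. Per 100 Ighm counts it had 2.36, 6.15, 2.01 and 5.73 counts in FCGR4+ and 8.73, 10.7, 8.15 and 8.72 in FCGR4- libraries. Per 100 Igkc counts it had 35.0, 17.4, 17.5 and 18.2 in FCGR4+ and 23.6, 25.0, 15.4 and 14.6 in FCGR4- libraries, which overlapped. Relative to Ighm, therefore, Ighv segments, Igkc and Jchain were each scarcer in FCGR4+ cells of every mouse.

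**Figure D2:**
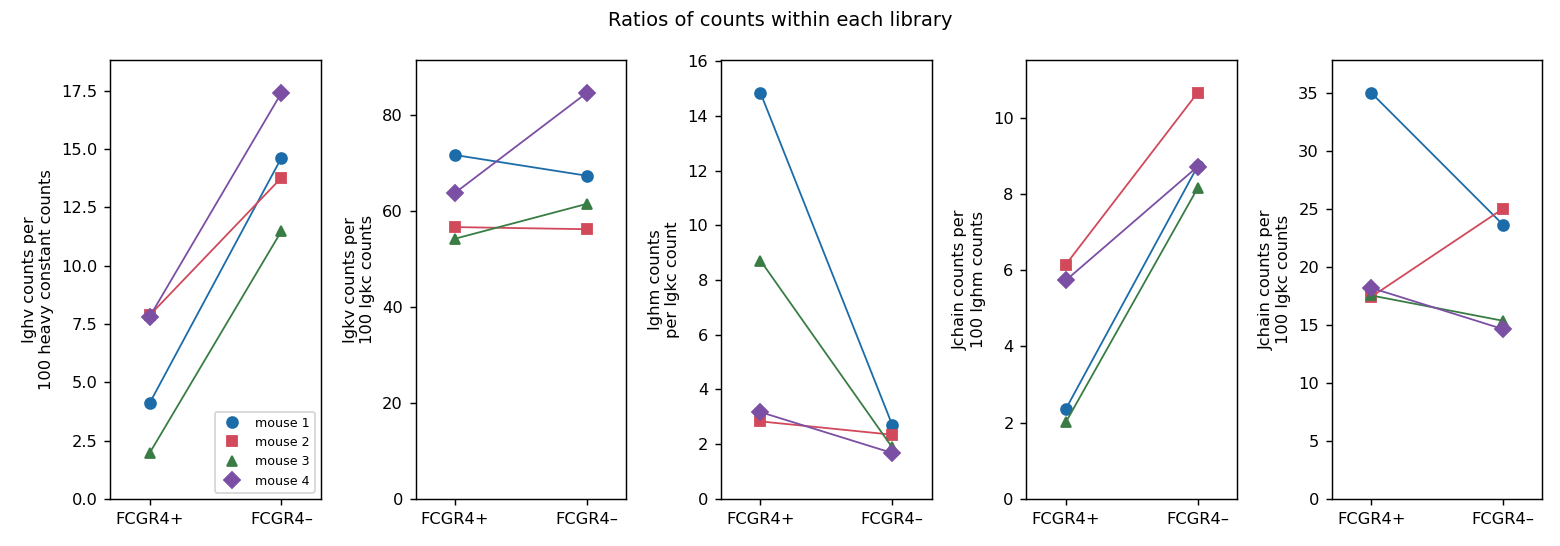
Ratios of counts within each library, on linear axes from 0, with a line joining both libraries of a mouse. Ighv per heavy constant counts and Jchain per Ighm counts are lower in all FCGR4+ libraries, Ighm per Igkc is higher, and Igkv per Igkc and Jchain per Igkc overlap.

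The segments in use differed between mice and between the populations of a mouse. The number of members with at least 10 counts was 35, 32, 37 and 55 in FCGR4+ libraries and 99, 26, 91 and 154 in FCGR4- libraries. That tally includes constant genes, uses the limit that chose the members and depends on immunoglobulin depth, so it does not compare segment use. An effective number of segments, the inverse of the summed squared shares, depends on the shares alone. For Ighv it was 6.89, 5.49, 13.6 and 4.68 in FCGR4+ and 9.70, 4.55, 14.1 and 14.9 in FCGR4- libraries. For Igkv it was 5.64, 5.60, 14.1 and 6.58 in FCGR4+ and 7.01, 4.51, 10.9 and 6.70 in FCGR4- libraries. Ighv11-2 and Igkv14-126, shown above, recurred in every mouse. This heavy and kappa pair is known from B-1 cells, innate-like B cells of the body cavities, whose antibodies bind phosphatidylcholine. Ighv11-2 took 23.4%, 28.3%, 8.80% and 43.6% of Ighv counts in FCGR4+ and 26.9%, 26.5%, 0.910% and 12.3% in FCGR4- libraries. Igkv14-126 took 30.3%, 21.4%, 7.35% and 34.5% of Igkv counts in FCGR4+ and 31.5%, 27.5%, 2.52% and 8.42% in FCGR4- libraries. The other pair known for this binding, Ighv12-3 with Igkv4-91, did not recur in this way. Ighv12-3 took 0% to 0.421% of Ighv counts, and Igkv4-91 took 666 of 8320 Igkv counts in FCGR4- cells of mouse 3 and 0% to 2.63% in the other libraries. For Ighv11-2 and Igkv14-126, both shares were low in mouse 3 and, within the FCGR4- cells, in mouse 4, and both were higher in FCGR4+ than in FCGR4- cells of mice 3 and 4. In level, Ighv11-2 measured 3.09, 3.76, 0.351 and 10.1 CPM in FCGR4+ and 47.9, 14.7, 0.524 and 50.6 CPM in FCGR4- libraries (log2 fold change -2.36 ± 0.48, adjusted p = 0.115). Its copy Ighv11-1 had 0.103 to 0.250 counts for each Ighv11-2 count across the 8 libraries.

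Some abundant segments were largely confined to 1 mouse or 1 library, while others, such as Ighv1-26 in all FCGR4- libraries and Ighv5-17 in those of mice 3 and 4 (15.7% and 10.2% of Ighv counts), were spread over several. In mouse 4, Igkv6-20 had 26283 counts in the FCGR4- library, 33.1% of its Igkv counts, and 312 in the FCGR4+ library (11.1%), but at most 8 in each other library. Igkv6-29 went with it at 11791 and 146 counts. For each Igkv6-20 count there were 0.449 and 0.468 Igkv6-29 counts in these libraries, and the near-identical exons shown above mean that the counts of 1 segment may largely be those of the other. Ighv14-4 was the leading heavy segment of the same FCGR4- library with 4379 counts, or 15.6%, and had 15 counts in the FCGR4+ library. In mouse 1, Igkv5-48 took 26.7% of Igkv counts in FCGR4+ and 17.6% in FCGR4- cells, and Iglv2 took 60.7% of Iglv counts in FCGR4- but 9.46% in FCGR4+ cells, where Iglv1 had 784 of 867 counts.

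Some segments led an FCGR4+ library but not the FCGR4- library of the same mouse. Ighv1-77 had 184 counts (28.8% of Ighv) in FCGR4+ cells of mouse 2 and 0 in its FCGR4- cells, and Igkv1-135 had 452 and 7. Ighv8-12 led in FCGR4+ cells of mouse 1 with 202 counts (25.8%), beside 158 counts (1.36%) in its FCGR4- cells. In mouse 3, Ighv1-84 (34 counts) and Igkv4-70 (120 counts) led in FCGR4+ cells and had 6 and 15 counts in FCGR4- cells. Conversely, Ighv5-16 led in FCGR4- cells of mouse 2 with 591 counts (31.4%), beside 6 in FCGR4+ cells. Ighv5-17 and Igkv6-15 led in FCGR4- cells of mouse 3 with 501 and 2008 counts, beside 0 and 5 in FCGR4+ cells.

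**Figure D3:**
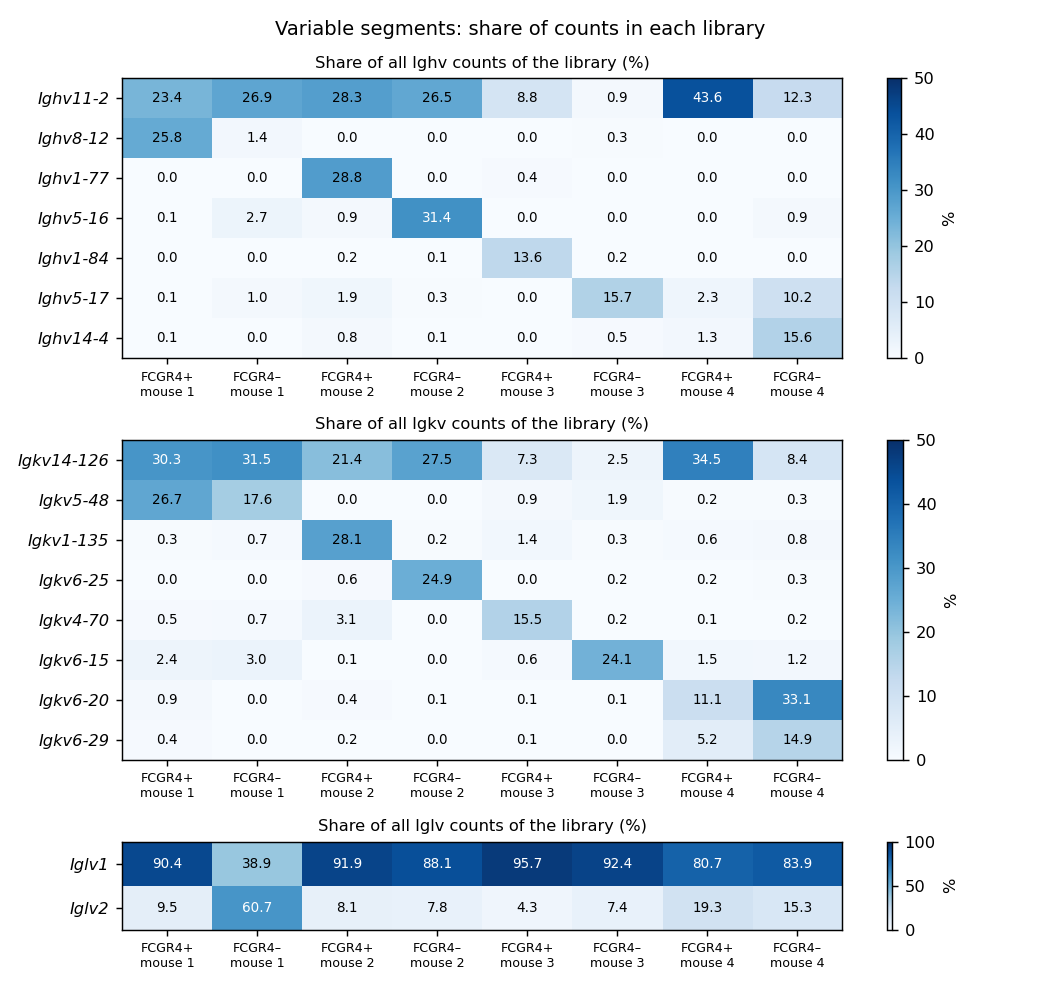
Share of all Ighv, Igkv or Iglv counts of a library, in percent, for the leading segments (rows) in both libraries of each mouse (columns). Ighv11-2 and Igkv14-126 recur in most libraries, while segments such as Ighv1-77 (28.8% in 1 library) or Igkv6-20 (33.1% and 11.1% in mouse 4) stand out in 1 library or mouse.

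Summing over all segments the lower of each pair of shares, both libraries of a mouse had a median of 41.2% of Ighv usage and 38.6% of Igkv usage in common, compared with 29.0% and 27.8% for FCGR4+ and FCGR4- libraries of different mice. The ranges overlapped (27.8% to 50.3% and 8.90% to 51.1% for Ighv). The closest FCGR4- library was that of the same mouse for 1 of 4 FCGR4+ libraries by Ighv and for 2 of 4 by Igkv.

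Genes that accompany antibody production were set beside the members. Beside 1.19% of all genes tested, 1 of 13 plasma cell genes, all tested, passed as lower. This was Jchain, at 7.52, 10.3, 4.01 and 16.7 CPM in FCGR4+ and 101, 42.6, 37.5 and 201 CPM in FCGR4- libraries (log2 fold change -3.17 ± 0.30, adjusted p = 0.00902). The summed level of the list was 353 to 578 CPM in FCGR4+ and 580.4 to 758 CPM in FCGR4- libraries. Much of this sum came from genes other than Jchain. In FCGR4+ libraries Xbp1, Txndc5, Sdc1, Creld2 and Tnfrsf13b averaged 171, 82.5, 75.1, 56.1 and 42.9 CPM, and Jchain 9.63. In FCGR4- libraries the same genes averaged 199, 121, 129, 70.7 and 34.9 CPM, and Jchain 95.6. Mzb1, a chaperone cofactor in antibody assembly, (-2.72 ± 0.63 on the log2 scale, adjusted p = 0.167), and Sdc1, the plasma cell surface protein CD138 (-0.75 ± 0.23, adjusted p = 0.306), did not pass. Of 18 B cell genes, 14 were tested. Cd72, a B cell gene that macrophages also express, was higher (0.99 ± 0.18, adjusted p = 0.0828). Cd79a, a signaling chain of the B cell receptor (-1.68 ± 0.54, adjusted p = 0.345), and Ms4a1, which encodes CD20 (-2.88 ± 0.82, adjusted p = 0.265), did not pass. The summed B cell list was at 156 to 228 CPM in FCGR4+ and 110 to 206 CPM in FCGR4- libraries and was higher in FCGR4+ cells of every mouse, but Cd72 made up much of it. Without Cd72, a comparison added after the values were seen, the sum was 49.8, 81.8, 51.5 and 41.0 CPM in FCGR4+ and 76.1, 77.0, 70.2 and 48.4 CPM in FCGR4- libraries, lower in FCGR4+ cells of 3 of 4 mice. None of 7 rearrangement and switching genes had enough counts to be tested.

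Of 12 genes that bind or transport antibodies, 10 were tested. Fcgr4 passed as higher (1.61 ± 0.17, adjusted p = 0.0162), as the sort would set. Fcer1a (-6.95 ± 0.51, adjusted p = 0.00600) and Ms4a2 (-5.52 ± 0.65, adjusted p = 0.0216), the alpha and beta chains of the IgE receptor of mast cells and basophils, passed as lower. Markers of other cells moved the same way, and are counted here beside 1.19% of all genes tested that passed as lower. All 7 tested of 8 mast cell and basophil markers were lower, with sums of 13.8 to 30.4 CPM in FCGR4+ and 378 to 1979 CPM in FCGR4- libraries. For T and NK cells 5 of 8 tested markers were lower (3.72 to 10.6 and 15.3 to 51.9 CPM), and for neutrophils 4 of 5 (53.4 to 471 and 261 to 2041 CPM). None of 5 tested plasmacytoid dendritic cell markers passed (2.21 to 4.18 and 2.35 to 8.49 CPM). No marker of these 4 lists had 0 counts in all libraries. The part of any of these cells in the immunoglobulin differences was not tested.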

How the data were processed

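Bulk RNA-Seq of FCGR4+ and FCGR4- eWAT macrophages from 4 mice gave 8 libraries. The authors mapped reads to mm10 with STAR, and the deposited values are raw counts per gene from featureCounts (version 1.6.3 per the file header, GENCODE release vM18), with pairs that map to several places counted at each and strand not used. Libraries were grouped and paired by the mouse number in the labels. Within-group deviations of same-mouse libraries correlated at 0.291 to 0.428 across 17095 genes.

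Genes that reached 10 counts in 4 or more libraries were TMM-normalized and tested with edgeR 4.0.16 (R 4.3.3, quasi-likelihood, mouse as a block, Benjamini-Hochberg adjustment, threshold 0.1). SE is the log2 fold change over the square root of F. Sums used a pseudocount of 1 CPM, and per-mouse ratios of genes a prior count of 2. The fits were tested on simulated data. Nothing says that the mice were separate batches beyond 2 prefixes of their IDs (mice 1 and 2, mice 3 and 4).

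The members and lists were chosen with earlier results of these data known. Named were all constant genes, all members past the threshold, the 3 most abundant members of each segment class, the leading Ighv and Igkv segment of each library, and passing genes of the companion lists with fixed markers; some of these are not reported here. Igkv6-17, Igkv4-69, Ighv11-1, Ighv12-3, Igkv4-91, Iglv3 and, in a plot, Igkv6-25 were added after their values were seen. Shared sequence was counted in 50-base words of GENCODE transcripts. Promoter sequences were not used here. Alternatives were DESeq2 1.42.0, no replicate block, other scalings, filters and thresholds, and leaving out each mouse.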

Additional observations from a re-analysis of the deposited data

Results flagged for a closer look

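Across 4 mice, the per-mouse log2 ratio (FCGR4+ over FCGR4-) of 2 segments had 1 mouse far from the rest. For Ighv1-26, mouse 4 was at -4.29 and the others between -5.89 and -5.73, a gap of 0.895 of the whole range. For Igkv14-126, mouse 1 was at -4.27 and the others between -2.28 and -1.87, a gap of 0.833. Both gaps exceed Dixon's 95% critical value for 4 samples, and chance alone gives this for about 1 in 20 sets, or 1.6 of the 32 sets of 4 values examined, so 2 is about the number chance would give.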

How the results depend on the processing

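The number of members called lower in FCGR4+ cells was 13 in the main analysis, out of 203 genes of any kind called lower. It was 33 of 832 with DESeq2, 39 of 572 with the other quasi-likelihood method of edgeR, 88 of 895 with no filter on low counts, 7 of 106 with mice 1 and 2 alone, 6 of 237 with at least 10 counts in every library (8 members tested), 6 of 74 at a threshold of 0.05 and 5 among members with under 10% shared sequence. Without the replicate block, that is, ignoring the pairing of libraries within mice, it was 2 (Ighv1-26 and Igkv9-120) of 47. Leaving out 1 mouse at a time gave 6 to 16, of 82 to 154. RLE scaling (13 of 201), library size alone (14 of 236) and mice 3 and 4 alone (13 of 84) stayed within 1.5 times. The number called higher was 0, and 0 to 1 when 1 mouse was left out. Mean log2 ratios of the summed constant genes (-2.44 to -1.79) and variable segments (-3.78 to -2.93) kept their direction without any 1 mouse, and the lambda share difference ranged from 1.69 to 9.40. Ighv per 100 heavy constant counts had a mean log2 ratio of -2.38 with unshared segments only. Without 1 mouse it was -1.84 to -1.26, and for Igkv per 100 Igkc counts -0.19 to -0.03. The log2 fold change of Ighd (-0.54) ranged from -0.93 to 0.051 when 1 mouse was left out, and turned positive without mouse 3. The causes were not tested.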
